A study of Mus musculus with 27 samples.

Results

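The retinoblastoma (pocket) proteins and the MuvB core are joined in a repressor complex of the cell cycle, DREAM, and 9 genes of that machinery were followed here: the pocket proteins Rb1, Rbl1 (p107) and Rbl2 (p130), the MuvB subunits Lin9, Lin37, Lin52, Lin54 and Rbbp4, and Mybl2 (B-MYB). They were chosen by symbol, with every probe set that the platform annotation gives to one of them alone, and are 9 of the 18193 genes that have such a probe set. They have 21 probe sets, and 1 further probe set that carries the Lin52 symbol together with another gene was left out. The brightest probe set of each of the 9 genes passed the filter on low signal, and 18 of the 21 probe sets did. RNA was measured on 27 Affymetrix arrays of mouse fetal liver cells taken at embryonic day 14.5 and kept in serum-containing medium for 0, 24 or 48 h.

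The groups were wild type (WT, with 3, 2 and 2 arrays at 0, 24 and 48 h), p107 KO (p107KO, 2, 2 and 1), Rb1 KO (Rb1KO, 5, 4 and 2) and Rb1;p107 DKO (DKO, 2, 1 and 1), so 3 of the 12 groups have a single array and no spread of their own. No group received a treatment. The alleles, any Cre driver, the part of Rb1 or Rbl1 that was removed and whether each array holds a separate embryo are not given in the sources used here, and p-values therefore measure the spread between these arrays, which may be technical. The array medians ran from 81.0 to 119.3 signal units. Signal of the Y-linked gene Eif2s3y above 500 was found in 9 arrays: 4 of the 4 DKO arrays, 3 of the 11 Rb1KO arrays, 2 of the 5 p107KO arrays and 0 of the 7 WT arrays. Across 10916 genes 4 arrays at 0 and 24 h had a lower mean correlation than the rest with the other arrays of their time, Rb1KO 0 h replicate 5 (0.952, against 0.967 to 0.977) and, at 24 h, Rb1KO replicate 1 (0.938), p107KO replicate 1 (0.948) and the DKO array (0.95), against 0.956 to 0.961 for the rest. At 48 h the correlations ran from 0.949 to 0.957. Erythroid cells fill the fetal liver at this age. Of 7 erythroid markers on the array 6 passed the filter, of which Slc4a1, the red cell anion exchanger, was brightest at a median of 41328, while the probe set of the alpha globin gene Hba-a1 was dim, at a median of 37.4, and was not tested. Erythroid markers summed to between 87457 and 228348 per array. Hepatocyte markers summed to between 166523 and 232904 per array at 0 h in all genotypes and to between 3063 and 42340 in culture.

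RB1, p107 and p130 bind E2F transcription factors and hold their target genes down until cyclin-dependent kinases phosphorylate the pocket proteins. In resting cells p130, and also p107, joins MuvB and a repressor E2F to form DREAM, which silences both the G1/S genes that carry E2F sites and the G2/M genes that carry a CHR element. In cycling cells the same MuvB core leaves p130 and binds B-MYB and then FOXM1, and so turns into an activator of G2/M genes. LIN54 is the subunit that reads the CHR, LIN52 carries the site whose phosphorylation favours the pocket proteins, LIN9 is a scaffold of the core, LIN37 is needed for DREAM to repress, and RBBP4 is a histone-binding protein shared with many chromatin complexes. Some of the genes are themselves targets of E2F, among them Rbl1 and Mybl2. Pocket proteins are widely studied in the fetal liver because embryos without Rb1 have failing red cell maturation there.

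On GRCm38.p6 Rb1 lies at chr14:73192858-73325951 and Lin9 at chr1:180641150-180690687; Rbl1 and Mybl2 are both on chromosome 2 and the other members are each on a chromosome of their own. Promoters are shown first because several members, measured below, rose in the same comparison. RefSeq start sites on GRCm38.p6 were available for 7 of the 9 genes, Lin54 having 2, and the 100 bases before each start are printed 5' to 3' on the strand of the gene. Capitals mark GCGGGA or GCGCGA, the cores of E2F-type sites, on either strand, so a match on the other strand reads TCCCGC or TCGCGC. The windows are chr2:157204535-157204634 for Rbl1 (minus strand), chr8:91069957-91070056 for Rbl2 (plus), chr7:30559647-30559746 for Lin37 (minus), chr12:84451408-84451507 for Lin52 (plus), chr5:100500640-100500739 and chr5:100498574-100498673 for the first and second starts of Lin54 (minus), chr4:129335371-129335470 for Rbbp4 (minus) and chr2:163054535-163054634 for Mybl2 (plus).
Rbl1: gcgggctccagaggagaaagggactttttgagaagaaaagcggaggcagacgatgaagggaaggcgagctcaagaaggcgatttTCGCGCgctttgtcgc
Rbl2: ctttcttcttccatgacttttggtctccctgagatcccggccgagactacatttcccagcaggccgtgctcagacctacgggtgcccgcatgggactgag
Lin37: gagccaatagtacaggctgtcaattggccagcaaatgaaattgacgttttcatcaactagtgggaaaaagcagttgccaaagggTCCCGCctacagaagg
Lin52: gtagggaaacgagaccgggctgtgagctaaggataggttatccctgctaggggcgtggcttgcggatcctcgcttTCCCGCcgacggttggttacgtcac
Lin54, first start: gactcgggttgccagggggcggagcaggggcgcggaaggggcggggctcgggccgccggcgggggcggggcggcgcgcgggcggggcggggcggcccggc
Lin54, second start: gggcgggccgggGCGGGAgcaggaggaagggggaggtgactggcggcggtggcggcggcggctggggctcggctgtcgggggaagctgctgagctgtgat
Rbbp4: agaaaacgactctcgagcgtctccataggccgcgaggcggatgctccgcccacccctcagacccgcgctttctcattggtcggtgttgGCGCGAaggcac
Mybl2: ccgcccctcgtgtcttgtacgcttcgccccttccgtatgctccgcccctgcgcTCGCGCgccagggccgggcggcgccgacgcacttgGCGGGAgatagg
At least 1 of the 2 motifs was found in 6 of the 8 windows, which belong to 6 of the 7 genes. Of 32851 promoter windows of the same length 12.7% had 1 (9.42% for GCGGGA and 4.1% for GCGCGA). Lin37 has a match but did not pass in Rb1KO against WT below, and Rbl2, which has none, did not pass either. In 5 genes, Rbl1, Lin37, Lin52, Rbbp4 and Mybl2, a match began within 25 bases of the start. Mybl2 had 2, GCGGGA at 12 to 7 bases and GCGCGA on the other strand at 47 to 42 bases before the start. The letters were not in the Rbl2 window or at the first start of Lin54. The CHR letters TTTGAA and TTCGAA, in 5.77% and 0.377% of all windows on either strand, were not found in these 8 windows. The GCGGGA and GCGCGA letters are richer in G and C than the CHR letters, and the base composition of the windows was not matched. The presence of a motif is a property of the letters and does not show that a factor binds.

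**Figure D1:**
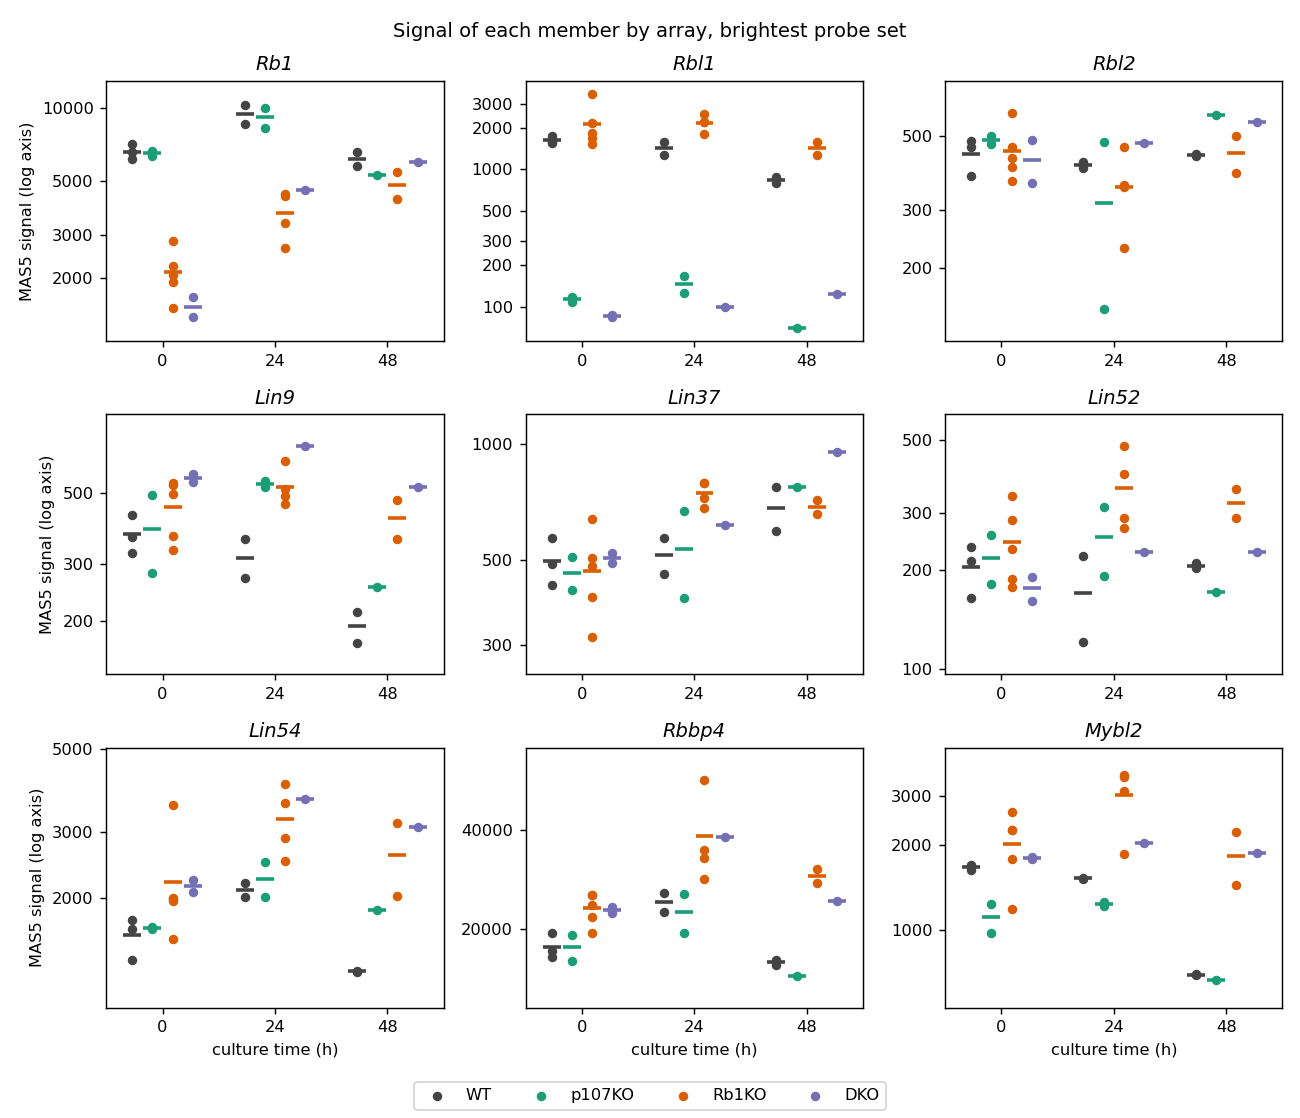
MAS5 signal (log axis) of the brightest probe set of each gene against culture time in hours; each point is 1 array and each bar the mean of its group, coloured by genotype. Rbl1 lies at or below 168 in every p107KO and DKO array and at or above 798 elsewhere, and the Rb1KO arrays at 24 h and 48 h lie above the WT arrays for Rbl1, Lin9, Lin52, Lin54, Rbbp4 and Mybl2. With so few arrays per group, the share of all genes that are so apart was not counted.

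The targeted genes were examined first. The Rb1 transcript gave 6144, 6579 and 7105 signal units in WT at 0 h, and 2236, 1931, 1507, 2047 and 2825 in Rb1KO. The groups were far apart, with every Rb1KO array below every WT array. By limma across 10916 genes the change was -1.66 ± 0.18 on the log2 scale of signal plus 32 (SE, 3.16-fold lower, adjusted p = 1.17e-05). At 24 h WT gave 10309 and 8589 and Rb1KO 2659, 3363, 4355 and 4433, a change of -1.37 ± 0.21 (adjusted p = 0.000208). At 48 h WT gave 5746 and 6583 and the arrays labelled Rb1KO 4207 and 5453. Both lay below WT, but the difference was not past the threshold (-0.36 ± 0.24, adjusted p = 0.41), and the array labelled DKO, at 5994, was above the p107KO array at 5314. The Rb1 signal therefore does not check the labels at 48 h. Within Rb1KO the probe set rose from 0 to 24 h by 0.80 ± 0.16 (limma adjusted p = 0.000268), and the change from 0 to 48 h was 1.30 ± 0.30 larger in Rb1KO than in WT (adjusted p = 0.0143). The second Rb1 probe set, 1444400_at, was dim, between 4.0 and 165.4 over the 27 arrays, and was not tested. With the log2 mean of both probe sets the 24 h difference turned from -1.37 to 0.05 and was not past the threshold.

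Rbl1, the gene of p107, gave 1571, 1541 and 1746 in WT at 0 h, against 117 and 109 in p107KO and 87.3 and 84.5 in DKO. At 24 h it gave 1583 and 1273 in WT, 168 and 126 in p107KO and 99.2 in DKO. At 48 h it gave 877 and 798 in WT, 70.3 in p107KO and 123 in DKO. No array labelled p107KO or DKO overlapped an array that keeps the gene at any time. Over the 3 times the log2 change of signal plus 32 was -3.21 ± 0.16 in p107KO against WT (limma adjusted p = 1.8e-11) and -3.81 ± 0.17 in DKO against Rb1KO (adjusted p = 6.81e-13). Rbl1 signals without the gene lie near the filter's floor, where adding 32 makes these changes smaller than those of the signals themselves. The probe set 1425166_at was lower in p107KO as well (-2.01 ± 0.25, adjusted p = 0.000453 over 20967 probe sets). The other 2 Rbl1 probe sets were too dim to test.

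The arrays labelled Rb1KO had more transcript of most of the machinery than WT. Averaged over the culture times, 6 of the 9 members rose and 1, Rb1 itself, fell, where 18.9% of all genes tested passed in either direction and 10.3% were higher. Mybl2, the activator partner, rose 1.77-fold and was followed by the CHR reader Lin54 (1.59-fold), Lin9 (1.56-fold), Rbbp4 (1.54-fold), Lin52 (1.49-fold) and the pocket protein gene Rbl1 (1.47-fold). Rbl2, the pocket protein of resting cells, and Lin37 did not pass. The median log2 change of the 9 members was 0.57, and 0.62 without Rb1 and Rbl1, against -0.07 over all genes tested. At the level of probe sets, 10 of the 18 tested were higher and 1 lower, where 15.3% of all probe sets passed.

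For Mybl2 the log2 change was 0.82 ± 0.15 (limma adjusted p = 0.000331). In WT it gave 1696, 1632 and 1712 at 0 h, 1525 and 1533 at 24 h, and 701 and 692 at 48 h. In Rb1KO it gave 1792, 2263, 2263, 2626 and 1194 at 0 h, 3501, 3124, 3553 and 1873 at 24 h, and 1445 and 2226 at 48 h. The genotypes overlapped at 0 h, where Rb1KO replicate 5 was below all WT arrays, and were apart at 24 and 48 h. The second probe set, 1454946_at, gave 0.75 ± 0.14 (adjusted p = 0.000493 over all probe sets).

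Rbbp4 rose by a log2 change of 0.62 ± 0.12 (limma adjusted p = 0.000509). Its brightest probe set gave 16455, 17163 and 19449 in WT at 0 h against 21686, 25430, 23668, 19514 and 25352 in Rb1KO. At 24 h it gave 25717 and 22561 in WT against 56646, 28310, 32937 and 34694 in Rb1KO. At 48 h it gave 15589 and 16152 in WT against 27484 and 30309 in Rb1KO. By the brightest probe sets, it was the only member besides Rb1 whose WT and Rb1KO arrays were apart at all 3 times. How many of all genes are so apart was not counted. This probe set, 1434892_x_at, has the suffix that Affymetrix uses where some probes match other transcripts. The 2 probe sets 1454791_a_at and 1454875_a_at rose by 0.92 each, while 1456260_at, at 0.34 ± 0.19, did not pass (adjusted p = 0.236). On 1454791_a_at and 1454875_a_at, Rb1KO 0 h replicate 5 was below all WT arrays of that time, at 1572.0 and 1648.9.

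Among the subunits specific to MuvB, Lin54 rose by a log2 change of 0.67 ± 0.14 (limma adjusted p = 0.00145). Its signal in WT was 1651, 1359 and 1744 at 0 h, 2190 and 2008 at 24 h, and 1267 and 1274 at 48 h. In Rb1KO it was 1987, 1994, 1959, 1548 and 3552 at 0 h, 2894, 2507, 3586 and 4035 at 24 h, and 2026 and 3175 at 48 h. The genotypes overlapped at 0 h only through Rb1KO replicate 4. The second Lin54 probe set, 1458582_at, did not pass, and its arrays overlapped at 0, 24 and 48 h.

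Lin9 rose by 0.64 ± 0.13 (limma adjusted p = 0.00137). It gave 426, 364 and 326 in WT at 0 h, 358 and 271 at 24 h, and 214 and 171 at 48 h. Rb1KO gave 528, 368, 495, 332 and 535, then 512, 487, 461 and 630, then 360 and 476. The arrays were apart at 24 and 48 h. The second Lin9 probe set, 1443984_at, gave 0.21 ± 0.24 and did not pass.

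Lin52 rose by 0.57 ± 0.16 (limma adjusted p = 0.0172). WT gave 164, 213 and 235 at 0 h, 121 and 221 at 24 h, and 210.1 and 203 at 48 h. Rb1KO gave 188, 338, 232, 178 and 285, then 289, 269.7, 394 and 478, then 289 and 354. The genotypes overlapped at 0 h and were apart in culture. Its second probe set, 1447482_at, rose by 1.06 ± 0.27 (adjusted p = 0.0096 over all probe sets). Lin37, which has 1 probe set, ran from 429 to 773 in WT and from 315 to 792 in Rb1KO and did not pass (0.14 ± 0.13, adjusted p = 0.477). Its Rb1KO arrays were above WT at 24 h alone.

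Of the other pocket proteins, Rbl1 rose by 0.56 ± 0.14 in Rb1KO (limma adjusted p = 0.00525). Rb1KO gave 3502, 1837, 1690, 1518 and 2174 at 0 h, 2509, 1814, 2212 and 2192 at 24 h and 1278 and 1567 at 48 h. Next to the WT values above, the arrays overlapped at 0 h and were apart at 24 and 48 h. The second tested Rbl1 probe set, 1425166_at, did not pass, and its arrays overlapped at 0 and 24 h. With probe sets averaged the Rbl1 call was lost (0.23, limma adjusted p = 0.254). Rbl2 showed no difference past the threshold. It ran from 379 to 485 in WT and from 231 to 587 in Rb1KO and overlapped at all 3 times (-0.07 ± 0.17, adjusted p = 0.806), and its second probe set gave 0.04 ± 0.21.

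**Figure D2:**
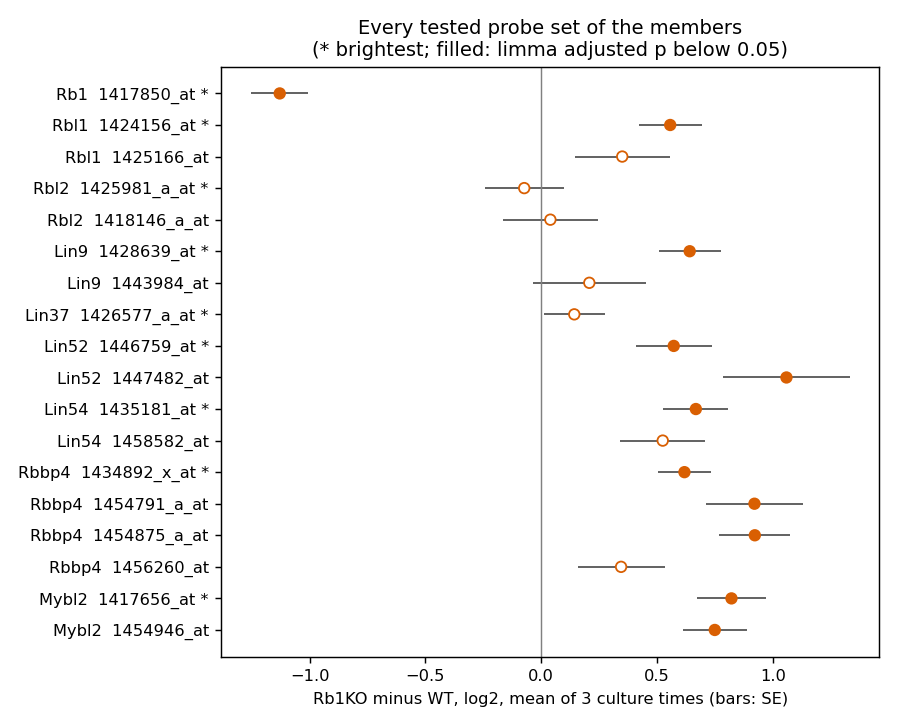
Log2 change of Rb1KO minus WT, averaged over the 3 culture times, for each of the 18 tested probe sets of the members; bars are SE, filled points passed and * marks the brightest probe set of a gene. Every tested probe set of Lin9, Lin37, Lin52, Lin54, Rbbp4 and Mybl2 lies to the right of 0, from 0.14 to 1.06, while both Rbl2 probe sets lie near 0.

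Several of these averaged calls were lost without the last culture time. Without the 48 h arrays 3 of the 7 remained, those of Rb1, Mybl2 and Rbbp4, with Lin52 at adjusted p = 0.0807, Lin54 at 0.0537, Lin9 at 0.0733 and Rbl1 at 0.0821. Without the 9 arrays with Y-linked signal 6 remained, and Lin52 did not (0.0833); Lin52 also missed the threshold without WT 24 h replicate 1 (0.0864) or Rb1KO 48 h replicate 2 (0.0673). Megakaryocyte markers moved the other way, 5 of 6 being lower in Rb1KO, with summed signals of 23285 to 33614 in WT and 14627 to 26764 in Rb1KO at 0 h, 13070 to 21442 and 9935 to 16183 at 24 h, and 58064 to 63268 and 39154 to 54875 at 48 h. Of the 6 erythroid markers tested 1 was lower, and of the 9 hepatocyte markers 1. Their part in the results was not tested. In bulk RNA a change in the share of a cell type and a change in transcript per cell cannot be told apart.

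**Figure D3:**
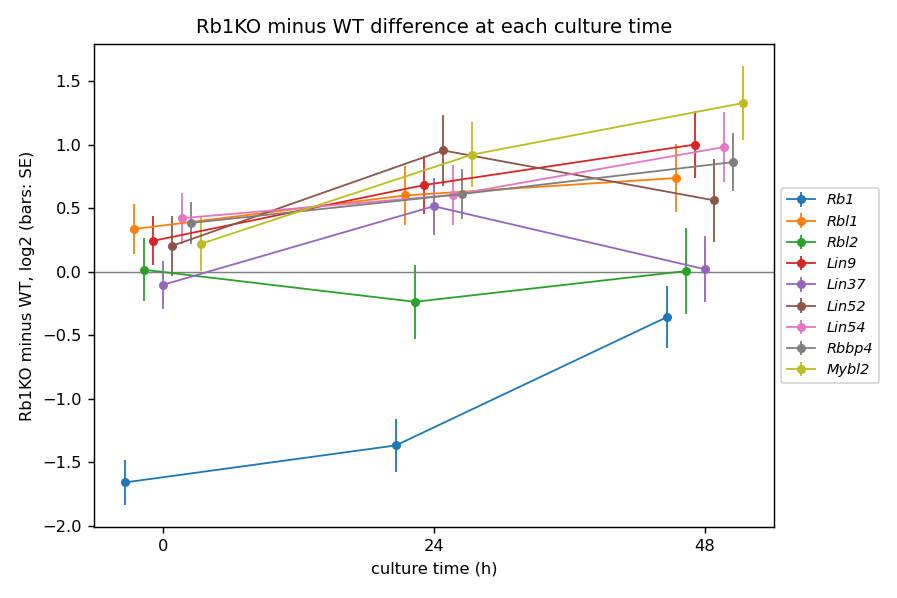
Log2 difference of Rb1KO minus WT for each member at 0, 24 and 48 h of culture, with SE bars; lines join the 3 estimates of a gene. Mybl2, Lin9, Lin54, Rbbp4 and Rbl1 go from between 0.22 and 0.42 at 0 h to between 0.74 and 1.33 at 48 h, and Rb1 from -1.66 to -0.36.

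By culture time, no member other than Rb1 passed at 0 h, where 0.614% of genes did. By limma 3 members had an unadjusted p under 0.05 there, Rb1 included, and the other estimates ran from -0.10 for Lin37 to 0.42 for Lin54. At 24 h 3 members passed, against 7.63% of genes: Mybl2 (0.92 ± 0.25, limma adjusted p = 0.0278) and Lin52 (0.95 ± 0.28, adjusted p = 0.0413) were higher and Rb1 was lower. At 48 h 4 passed, all higher, against 10.4% of genes: Mybl2 (1.33 ± 0.29, limma adjusted p = 0.00387), Lin9 (1.00 ± 0.26, 0.0154), Rbbp4 (0.86 ± 0.23, 0.0162) and Lin54 (0.98 ± 0.28, 0.0234). This is 2.51-fold for Mybl2 and 2.00-fold for Lin9.

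The calls at single times rest on few arrays. At 24 h the Mybl2 call was lost without Rb1KO replicate 1 (limma adjusted p = 0.0556) or 3 (0.0681). It was also lost with only the compared groups (0.0794) and once Y-signal arrays were dropped (0.0936). Dropping WT replicate 1 or 2 leaves 1 WT array, and the Mybl2 difference was then 0.92. The Lin52 call was lost without Rb1KO replicate 3 (0.0815) or 4 (0.1), with no filter (0.0712), quantile normalization (0.0541) or probe sets averaged (0.0612). It was also lost with only the compared groups (0.149), a replicate block (0.0909), Y-signal arrays dropped (0.0624) or 48 h arrays dropped (0.0516). With WT replicate 1 dropped, the Lin52 difference was 0.59, against 0.95 in the full fit. With probe sets averaged, Lin54 (0.80, 0.0782) and Lin9 (0.56, 0.222) did not pass at 48 h. At 48 h none of the 4 passed without Rb1KO replicate 2, which leaves 1 Rb1KO array, 1 passed without WT replicate 2 and 2 without WT replicate 1. At 24 h 1 passed without WT replicate 1 or Rb1KO replicate 3. Hepatocyte markers were lower in Rb1KO at 48 h for 3 of 9, with summed signals of 10695 and 42340 in WT and 4694 and 16991 in Rb1KO, and their part was not tested.

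Whether the genotype difference grew with culture was tested as an interaction. From 0 to 48 h 1 member passed, Rb1, against 3.48% of genes, and Mybl2 was 1.11 ± 0.36 (limma adjusted p = 0.103). The Rb1 interaction was lost without Rb1KO 48 h replicate 2 or WT 48 h replicate 1, where no member passed. From 24 to 48 h no member passed, with 1 at an unadjusted p under 0.05, and 0.0458% of genes did.

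In cells that lack p107 alone, 1 member passed when the times were averaged, Rbl1 itself, where 0.0183% of genes did, and at 0 h again 1, where 0.00916% did. The other 8 averaged differences ran from -0.32 for Mybl2 to 0.36 for Lin9, and 2 members in all had an unadjusted p under 0.05. Lin9 gave 490 and 282 in p107KO at 0 h, 545 and 522 at 24 h and 255 at 48 h (0.36 ± 0.16, limma adjusted p = 0.711). Mybl2 gave 982 and 1242 in p107KO at 0 h, 1265 and 1220 at 24 h and 665 at 48 h. Each of these was below the WT arrays of its time, but how many of all genes are so apart was not counted. The Mybl2 difference did not pass (-0.32 ± 0.18, limma adjusted p = 0.871), and its second probe set gave 0.06 ± 0.17. Rbl2, the closest relative of Rbl1, gave 475 and 500 in p107KO at 0 h, 151 and 479 at 24 h and 581 at 48 h. The low value at 24 h was replicate 1, which is among the 4 arrays of low correlation at 0 and 24 h.

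Loss of Rb1 on the p107KO background was read from arrays that share none with Rb1KO and WT. In DKO against p107KO 4 of the 9 members passed, against 7.0% of genes: Mybl2 (0.95 ± 0.21, limma adjusted p = 0.00479), Rbbp4 (0.63 ± 0.16, adjusted p = 0.0161) and Lin9 (0.62 ± 0.19, adjusted p = 0.0452) were higher and Rb1 was lower (-0.96 ± 0.17, adjusted p = 0.000727). Lin54 was at 0.60 ± 0.20 (adjusted p = 0.0686). Tested singly, 2 of the 18 probe sets were higher, the brightest of Mybl2 and of Rbbp4, and 1 was lower, where 5.73% of all probe sets passed. The other Rbbp4 probe sets did not pass. With probe sets averaged, Rbbp4 (0.45, limma adjusted p = 0.0947) and Mybl2 (0.55, adjusted p = 0.0639) did not pass. The Lin9 call was lost in 8 of the 9 fits that leave out 1 array of these groups (adjusted p of 0.066 to 0.342), without the 48 h arrays (0.342), with the mean over probe sets (0.221), with no filter (0.0776), with every probe set tested singly (0.0533), without the 4 arrays of low correlation (0.0627), with only the compared groups (0.0798) and with a replicate block (0.054). Lin54 passed with array weights (0.00817), with only the compared groups (0.0143) and with the block (0.0178).

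In DKO Mybl2 gave 1789 and 1824 at 0 h, 2048 at 24 h and 1874 at 48 h. Rbbp4 gave 22419 and 23252, then 38028, then 24377, where p107KO gave 16055 and 19146, then 25526 and 19469, then 14449. Lin9 gave 541 and 572, then 700.4, then 522, and Lin54 2230.0 and 2069, then 3673, then 3101. On the brightest probe sets of these 4 genes every DKO array was above every p107KO array of its time. The share of all genes so apart was not counted. On Rbbp4 probe sets 1454791_a_at and 1454875_a_at the DKO array at 24 h, at 4068 and 2012.9, was below both p107KO arrays. The lower p107KO arrays there gave 4331.9 and 2837.3. On the second probe sets of Mybl2, Lin9 and Lin54 the arrays overlapped at 0 h.

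Lin52 was close to level here. It gave 162 and 192 in DKO at 0 h, 227 at 24 h and 228 at 48 h, a difference from p107KO of 0.00 ± 0.23 (limma adjusted p = 0.999), while its other probe set was at 1.01 ± 0.38 (adjusted p = 0.141). Rbl2 was at 0.15 ± 0.24 and Lin37 at 0.22 ± 0.18, and neither passed. Whether the effect of Rb1 loss differs between the backgrounds was not tested. The second Mybl2 probe set was 0.15 ± 0.19 in this comparison and did not pass. Without p107KO 48 h replicate 1 or DKO 48 h replicate 1, 1 of the 4 calls remained, that of Rb1, and 2 without DKO 24 h replicate 1. Without the arrays with Y-linked signal no DKO array is left, so its part cannot be told apart, and 5 of 9 hepatocyte markers were lower in DKO, summing at 48 h to 3063 against 25058 in p107KO.

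**Figure D4:**
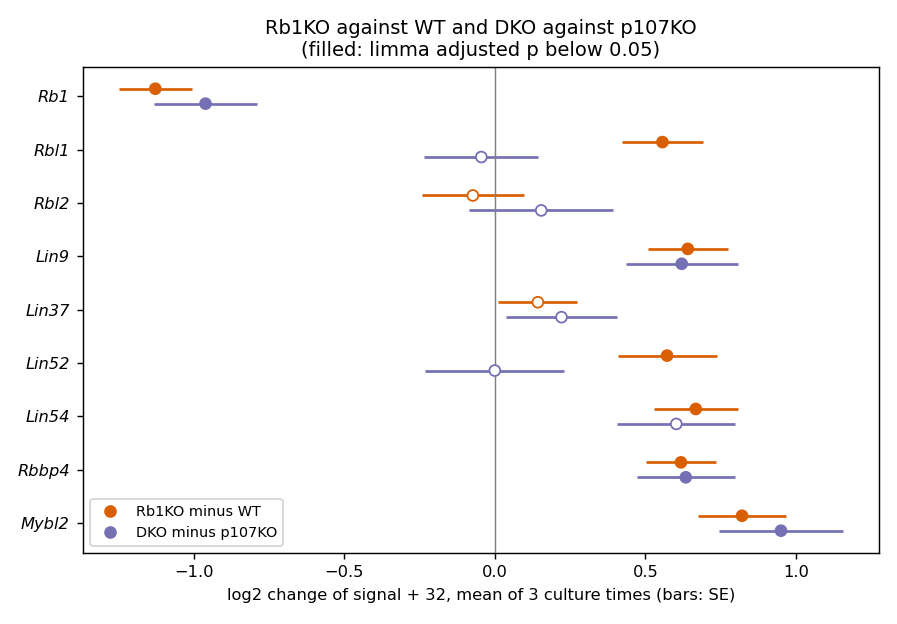
Log2 change of signal plus 32, averaged over 3 culture times, for Rb1KO minus WT and for DKO minus p107KO, with SE bars; filled points passed the threshold. Mybl2, Rbbp4, Lin9 and Lin54 lie between 0.60 and 0.95 in both comparisons, and Lin52 lies near 0 in DKO minus p107KO; Rbl1 is lost in both arms of that comparison, so its value there compares arrays that all lack the gene.

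With p107 lost on top of Rb1, 1 member changed in DKO against Rb1KO, Rbl1, where 0.999% of genes did. The other 8 differences ran from -0.45 for Lin52 to 0.34 for Lin9, and by limma 3 members in all had an unadjusted p under 0.05. In fresh cells, DKO against WT had 2 members past the threshold, the targeted Rb1 (-2.10 ± 0.22) and Rbl1 (-3.81 ± 0.25), where 0.183% of genes passed.

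In WT culture 2 of the 9 members passed from 24 to 48 h, both lower. From 0 to 24 h no member passed by limma (2 at an unadjusted p under 0.05; no other tool was run), while 36.9% of all genes did. From 24 to 48 h Mybl2 fell by 1.10 ± 0.29 on the log2 scale, which is 2.14-fold (limma adjusted p = 0.00829), and Rbl1 fell by 0.74 ± 0.27, which is 1.67-fold (adjusted p = 0.0465). These 2 of 9 stand against 25.2% of all genes. Lin54 (-0.71), Lin9 (-0.62), Rb1 (-0.61) and Rbbp4 (-0.60) did not pass, with limma adjusted p between 0.0584 and 0.0878. Their WT arrays at 48 h were all below those at 24 h, but how many of all genes are so apart was not counted. Without 1 of the 4 WT arrays of 24 and 48 h in turn, between 0 and 1 members passed.

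In Rb1KO 5 members rose from 0 to 24 h, where 51.0% of all genes changed. They were Rb1, Rbbp4 (0.68 ± 0.15, limma adjusted p = 0.000879), Lin37 (0.67 ± 0.17, adjusted p = 0.0028), Lin54 (0.59 ± 0.19, adjusted p = 0.0114) and Mybl2 (0.57 ± 0.20, adjusted p = 0.0193). The Mybl2 call was lost without the 4 arrays of low correlation (0.31, adjusted p = 0.172), without arrays with Y-linked signal (0.0617), with only the compared groups (0.0652), with a replicate block (0.0581), with the mean over probe sets (0.0737) and without Rb1KO 0 h replicate 5 (0.0591) or replicate 1 (0.0659) or 3 (0.0707) of Rb1KO at 24 h. The second Lin54 probe set, 1458582_at, was at -0.55 ± 0.24 and did not pass, and the mean over both Lin54 probe sets was 0.02 (adjusted p = 0.948); the Lin54 call was also lost without Rb1KO 24 h replicate 4 (0.052). Lin37 went from between 315 and 637 at 0 h to between 681 and 792 at 24 h, without overlap, and the share of all genes so apart was not counted. From 24 to 48 h no member passed in Rb1KO, where 21.0% of genes did and 2 members had an unadjusted p under 0.05. The nearest were Mybl2 (-0.69 ± 0.25, adjusted p = 0.0547) and Rbl1 (-0.60 ± 0.23, adjusted p = 0.0681), and for neither did this fall differ from that of WT past the threshold (Mybl2 0.41 ± 0.39, adjusted p = 0.978). In p107KO no member passed from 0 to 24 h, with 1 at an unadjusted p under 0.05 and 28.1% of genes passing.

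The cell mixture changed over the same hours. All 9 hepatocyte markers tested fell from 0 to 24 h in WT, Rb1KO and p107KO, with medians of -6.54, -6.20 and -5.44, and 5, 6 and 5 of 6 endothelial markers fell. Endothelial markers summed to between 3641 and 5916 at 0 h and to between 261 and 760 in culture. From 24 to 48 h all 6 megakaryocyte markers rose in WT and in Rb1KO, as did 5 and 7 of 7 macrophage markers and 4 and 5 of 6 neutrophil markers. Neutrophil markers summed to between 48987 and 81225 at 0 h, 73111 and 245214 at 24 h, and 162200 and 235600 at 48 h. The part of these changes in the members' values was not tested.

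The probe sets of Rbbp4 disagreed over culture. From 0 to 24 h 1454791_a_at rose in WT (1.04 ± 0.38, limma adjusted p = 0.0418) and in Rb1KO (1.37 ± 0.28, adjusted p = 0.000392). In the same comparisons 1456260_at fell by 1.14 ± 0.34 (adjusted p = 0.0135) and by 0.63 ± 0.25 (adjusted p = 0.0461). The direction of Rbbp4 in culture thus depends on the probe set, while all 4 were higher in Rb1KO than in WT, 3 of them past the threshold.

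The order of the 12 groups on the brightest probe set summarises the levels of each gene. Mybl2 was highest in Rb1KO at 24 h (mean 3013) and lowest in p107KO and WT at 48 h (665 and 697). The 6 groups without Rb1 held the 6 highest means on this probe set. That was not so on the second Mybl2 probe set, 1454946_at. There the means of WT at 0 and 24 h (427.9 and 404.6) and p107KO at 0 h (416) were above those of DKO (403, 398.3 and 369.1). Lin54 was highest in DKO at 24 h (3673) and lowest in WT at 48 h (1271), and Lin9 likewise (700.4 and 192). Rbbp4 was highest in Rb1KO at 24 h (38147) and lowest in p107KO at 48 h (14449). Neighbours in the order often overlapped: the first 6 groups did so in turn for Mybl2, the first 8 for Lin54, and Rb1KO and DKO at 24 h for Rbbp4. Rbl2 ran from 581 in p107KO at 48 h to 315 in p107KO at 24 h, and its neighbours overlapped from the third place to the last.

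The genes whose arrays varied most like a member were sought among all genes tested by Pearson correlation over the 27 arrays, after the mean of each culture time was subtracted. For Rbbp4 they were Tubb5 (r = 0.95), a tubulin, Pcna (0.95), the replication clamp, and Stmn1 (0.94), a tubulin-binding protein. For Mybl2 they were Pgp (0.93), Ccnf (0.92), which is cyclin F, and Gfi1b (0.92), an erythroid and megakaryocyte repressor. For Lin54 they were Prps1l3 (0.91), Anln (0.90), the cytokinesis protein anillin, and Ncaph (0.89), a condensin subunit. For Rbl1, Rbl2, Lin9, Lin37, Lin52 and Rb1 the best match was between 0.72 and 0.86. Among the members the closest pairs were Lin9 with Lin54 (0.77), Rbbp4 with Mybl2 (0.73) and Lin54 with Rbbp4 (0.68). These values describe arrays that share genotypes and libraries and carry no test.

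The genes that the complexes act on, and their regulators, were read from 5 lists. Of 18 tested G1/S genes bound by DREAM, 15 rose and 0 fell in Rb1KO averaged over the times, where 10.3% of all genes were higher and 8.57% lower, with a median of 0.53 against -0.07 over all genes. They included Slbp (1.10 ± 0.07), which binds histone mRNA, Clspn (1.07 ± 0.09), a checkpoint mediator, and Cdc6 (0.79 ± 0.10), a replication licensing factor. Of 19 tested G2/M genes bound by B-MYB and MuvB, 14 rose and 0 fell (median 0.44), among them Tpx2 (0.72 ± 0.07), a spindle protein, and Cdk1 (0.65 ± 0.08), the mitotic kinase. In DKO against p107KO 12 rose in each of these lists and 0 fell, where 4.41% of all genes were higher, and in WT from 24 to 48 h 15 fell in each and 0 rose, where 12% were lower.

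Of 10 E2F and DP genes 5 rose and 2 fell in Rb1KO, led by the repressors E2f8 (1.16 ± 0.10) and E2f7 (1.09 ± 0.10), with the activator E2f1 at 0.80 ± 0.15. Of 14 cyclins, cyclin-dependent kinases and inhibitors that act on pocket proteins 7 rose and 2 fell, led by Cdkn2c (1.20 ± 0.10), an inhibitor of the cyclin D kinases, and the cyclins Ccne2 (1.52 ± 0.15) and Ccne1 (1.09 ± 0.11). Of 8 tested partners and regulators 3 rose and 0 fell, with a median of -0.01: Dyrk1a (0.62 ± 0.08, limma adjusted p = 1.04e-05), the kinase that phosphorylates LIN52, Foxm1 (0.55 ± 0.19, adjusted p = 0.0433), the later partner of MuvB, and Rbbp7 (0.27 ± 0.09, adjusted p = 0.0304), the close relative of Rbbp4.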

How the data were processed

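The 27 arrays were deposited as 1 table of MAS5 signal, an intensity on a linear scale, made with MAS5 in GCOS 1.4 per the submitters' processing notes, and scaled per array by the authors. Of 45037 probe sets, 34945 had 1 gene symbol in the platform annotation, 932 had several and 9160 had none. For 34741 the Entrez identifier was found among the RefSeq genes, and the RefSeq symbol was used, whether or not it differed. Groups came from the sample labels. The signal was used as deposited, as log2(signal + 32), with the brightest probe set per gene and the lowest 40% of genes left out (10916 of 18193 kept). A model of 12 group means was fitted with limma 3.58.1 in R 4.3.3 (lmFit, eBayes with trend; 15 residual and 7.17 prior degrees of freedom) for 16 comparisons, with Benjamini-Hochberg adjustment over all genes and a threshold of 0.05. Groups of 1 array were assumed to vary like the others. A second fit used all 20967 probe sets above the filter. MAS5 scales each array to a common level, so a change in total RNA is not measured. Precision is limited by the few arrays per group. The script was tested on simulated data. Replicate numbers were taken not to pair arrays.

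The members and gene lists were chosen with earlier results of these data known. Named genes are all members, up to 4 genes per list with the lowest p, and the 3 genes most correlated with each member. Alternatives were the pseudocount (1 or 100), the filter (none or 60%), quantile normalization, probe sets averaged or taken singly, array weights, a replicate block, fits on the compared groups alone, and leaving out arrays. Promoter sequence came from RefSeq, GRCm38.p6.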

Additional observations from a re-analysis of the deposited data

Results flagged for a closer look

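The effect of Rb1 loss on the Rb1 probe set itself differed between culture times. From 0 to 48 h the change was 1.30 ± 0.30 larger in Rb1KO than in WT on the log2 scale (limma adjusted p = 0.0143).

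Outliers were sought in the groups of 4 or 5 arrays, Rb1KO at 24 h and at 0 h, over 21 probe sets, which gives 42 sets of values. About 1 in 20 sets would hold an outlier by chance, but these sets share arrays and genes and are not independent. In 5 of the 42, 1 array lay far from the others. For the dim Rbl1 probe set 1432604_at these were Rb1KO replicate 4 at 0 h, with 20.7, and at 24 h, with 3.5. For Rbbp4 they were 1454791_a_at in Rb1KO 0 h replicate 5 (1572.0) and in Rb1KO 24 h replicate 3 (9099.8), and 1454875_a_at in Rb1KO 0 h replicate 5 (1648.9). None of the 5 was in the brightest probe set of a gene.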

How the results depend on the processing

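Counts are members past the threshold; unless a value shows otherwise, the cause of a change was not tested. In Rb1KO against WT averaged over the times, 7 became 3 without the 48 h arrays and 5 to 7 under the other settings; the calls of Mybl2 and Rbbp4 held under every setting run. With probe sets averaged, which lets dim ones count, the counts were 0 of 1 at 0 h, 2 of 4 at 48 h, 0 of 4 in DKO against p107KO, 1 of 2 in DKO against WT, 1 of 2 in WT from 24 to 48 h, 3 of 5 in Rb1KO from 0 to 24 h and 0 of 1 in the 0 to 48 h interaction, and Rb1 at 24 h turned to 0.048 (adjusted p = 0.933). With only the compared groups in the fit, the counts were 1 of 3 at 24 h and 2 of 4 at 48 h, 3 instead of 0 in WT from 0 to 24 h and 5 instead of 2 from 24 to 48 h. Without arrays with Y-linked signal they were 1 at 24 h, 0 at 48 h, 1 in WT from 24 to 48 h and 0 in the interaction. Without the 4 arrays of low correlation they were 5 at 24 h, 2 and 5 in the WT steps and 1 in Rb1KO from 24 to 48 h. DKO against p107KO had 1 without the 48 h arrays. WT from 24 to 48 h had 1 with a pseudocount of 1, with no filter and with every probe set tested singly. Array weights gave 2 in WT from 0 to 24 h and 1 in Rb1KO from 24 to 48 h; a 60% filter gave 1 there, and quantile normalization 2 in the interaction.

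Deviations of same-numbered arrays from their group means had a median r of 0.02 over 76 pairs (-0.17 to 0.42). For the 175 other pairs the median was -0.02 (-0.42 to 0.30). In a group of 2 arrays the deviations mirror each other, so these values cannot show whether replicate numbers pair arrays. With a replicate block the counts were 1 and 4 in the WT steps and 2 in Rb1KO from 24 to 48 h. The block also ended the calls of Lin52 at 24 h (adjusted p = 0.0909), Mybl2 in Rb1KO from 0 to 24 h (0.0581) and Lin9 in DKO against p107KO (0.054), and added Lin54 there (0.0178).

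Leaving out 1 array gave 1 to 4 in Rb1KO against WT at 24 h, 0 to 4 at 48 h, 1 to 4 in DKO against p107KO, 0 to 1 in WT from 24 to 48 h (0 without WT 24 h replicate 2), 0 to 1 in the 0 to 48 h interaction, 0 to 1 in Rb1KO from 24 to 48 h (1 without Rb1KO 24 h replicate 4 or 48 h replicate 2) and 0 to 1 in p107KO from 0 to 24 h (Rbl2 without replicate 2 of 24 h).

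Over all genes, the Rb1KO against WT count of 2062 was 677 without 48 h and 1031 once arrays with Y-linked signal were left out; at 48 h 1132 became 288 without arrays with Y-linked signal. In DKO against Rb1KO 109 became 689 with array weights and 5 without the 4 arrays of low correlation, and the share of higher calls 46.2% instead of 59.6% with quantile normalization.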
